A study of Papio anubis with 12 samples.

Results

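The genes of this account are the caspases, the BCL2 family, the proteins released by the mitochondria during cell death, the inhibitors of apoptosis and the death receptor pathway. They were given as a list of 40 gene symbols, and a gene was taken as measured where at least 1 probe set of the array carries its symbol and no other in the platform annotation. By this rule 38 of the 40 genes were measured, by 126 of the 54613 probe sets tested. BBC3 shares its probe set with other symbols and BIRC3 was not matched to a probe set, so these genes are not analysed here. Each gene is given by the brightest of its probe sets, the one with the highest mean signal over the 12 arrays, and its other probe sets are set beside it. The measured list holds 4 anti-apoptotic BCL2 proteins, 4 multidomain BAX-like and related proteins, 8 BH3-only and BNIP3 proteins, 5 apoptosome and mitochondrial factors, 7 caspases, 4 inhibitor of apoptosis proteins, 5 members of the death receptor pathway and CARD6.

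Apoptosis is reached by an intrinsic and an extrinsic route. In the intrinsic route BH3-only proteins such as PMAIP1, BMF and BAD bind the anti-apoptotic proteins BCL2, BCL2L1 and MCL1, which frees BAX and BAK1 to open the outer mitochondrial membrane. Cytochrome c (CYCS) then leaves the mitochondria and assembles with APAF1 and CASP9 into the apoptosome, while DIABLO and HTRA2 relieve the block that XIAP and related proteins put on caspases. In the extrinsic route FAS and other death receptors recruit FADD and the initiator caspases CASP8 and CASP10, which CFLAR restrains. In the developing cortex both neurons and glia are produced in excess and removed by this machinery, and most members act through protein binding, cleavage and release, none of which is measured by transcript levels.

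Total RNA of the precentral gyrus, the gyrus of the primary motor cortex, was measured on human Affymetrix HG-U133 Plus 2.0 arrays in 12 baboon neonates (Papio anubis), with 1 animal per array. All 12 animals were fed a formula for 12 weeks and were 83 to 87 days old at necropsy. Formula C (4 animals, 2 of them male) held no docosahexaenoic acid (DHA) and no arachidonic acid (ARA), formula L (4 animals, 1 of them male) held 0.33% DHA and 0.67% ARA, and formula L3 (4 females) held 1.00% DHA and 0.67% ARA. L/C therefore compares a formula with both fatty acids with a formula without them, L3/C does so at the higher DHA level, and L3/L compares DHA levels at the same ARA level, with sex unevenly spread over the groups.

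The values are MAS5 signals, a linear brightness per probe set that was scaled to the same trimmed mean on every array, close to 250. Differences are on the log2(signal + 16) scale after quantile normalisation, which understates the fold change of dim probe sets, and each is given with its standard error (SE) from limma. Between arrays, the signal of the hybridisation spike-ins, added in a known amount, ranged on the log2 scale from 11.11 to 12.71 in C, from 10.74 to 13.04 in L and from 10.80 to 13.72 in L3. The 3'/5' ratio of ACTB, a sign of RNA integrity, ranged from 0.98 to 12.1 in C, from 0.90 to 11.0 in L and from 1.13 to 72.3 in L3. No difference between groups in either measure passed an exact permutation test of 4 against 4 arrays (two-sided, lowest p = 0.286), and both spread widely within every group. The largest differences were in L3/L, at 1.03 for the spike-in signal and 1.53 for the ACTB ratio on the log2 scale. With 4 arrays per group the test cannot show that the groups were alike. In each group the ACTB ratio fell in the order of the labelled replicate numbers, 1 to 4. The tissue was bulk cortex with the summed signal of 7 neuron markers between 58081 and 89733 on all arrays. Some other marker sums spread more widely, from 7633 to 29778 for excitatory neurons and from 2318 to 15966 for fibroblasts and meninges. Fewer cells of a type cannot be told apart from less RNA per cell.

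No probe set of the whole table passed an adjusted p of 0.05 (limma, Benjamini-Hochberg over 54613 probe sets) in any comparison, so no member did, and the calls below are at an unadjusted p under 0.05. In L/C 1 of 38 members was called, CYCS, which was higher, against 2.42% of all probe sets and 2.13% of the brightest probe sets of all 19775 genes. In L3/C 1 of 38 was called, BIRC5, which was lower, against 4.26% of all probe sets and 3.94% of the brightest. In L3/L 4 of 38 were called, with PMAIP1 higher and BIRC5, HTRA2 and CASP10 lower, against 5.4% of all probe sets and 5.16% of the brightest. Over the 3 groups together BIRC5, HTRA2 and PMAIP1 were called, against 3.67% of all probe sets and 3.31% of the brightest. The members' shares, 2.63%, 2.63% and 10.5% in L/C, L3/C and L3/L, were near the background in the first pair of comparisons and rest on 4 genes in L3/L.

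The list as a whole did not move one way. Higher values were found for 17 of 38 members in L/C, 19 in L3/C and 22 in L3/L, with median log2 differences of -0.04, 0.03 and 0.07, beside medians over all probe sets of -0.01, -0.00072 and 0.01. The median size of a member's log2 difference, without its sign, was 0.32, 0.23 and 0.31, beside 0.28, 0.32 and 0.35 over all probe sets. Differences of 2-fold or more were seen for 3 members in L/C, 1 in L3/C and 6 in L3/L. The 2-fold background in the same order was 4.87%, 7.2% and 8.81% of all probe sets, or 3.9%, 6.27% and 7.39% of the brightest. Groups whose 4 arrays did not overlap were found for CYCS in L/C (background 2.1% of all probe sets and 2.04% of the brightest), for no member in L3/C (2.21% and 2.15%) and for PMAIP1, BMF and BAX in L3/L (2.66% and 2.55%).

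**Figure D1:**
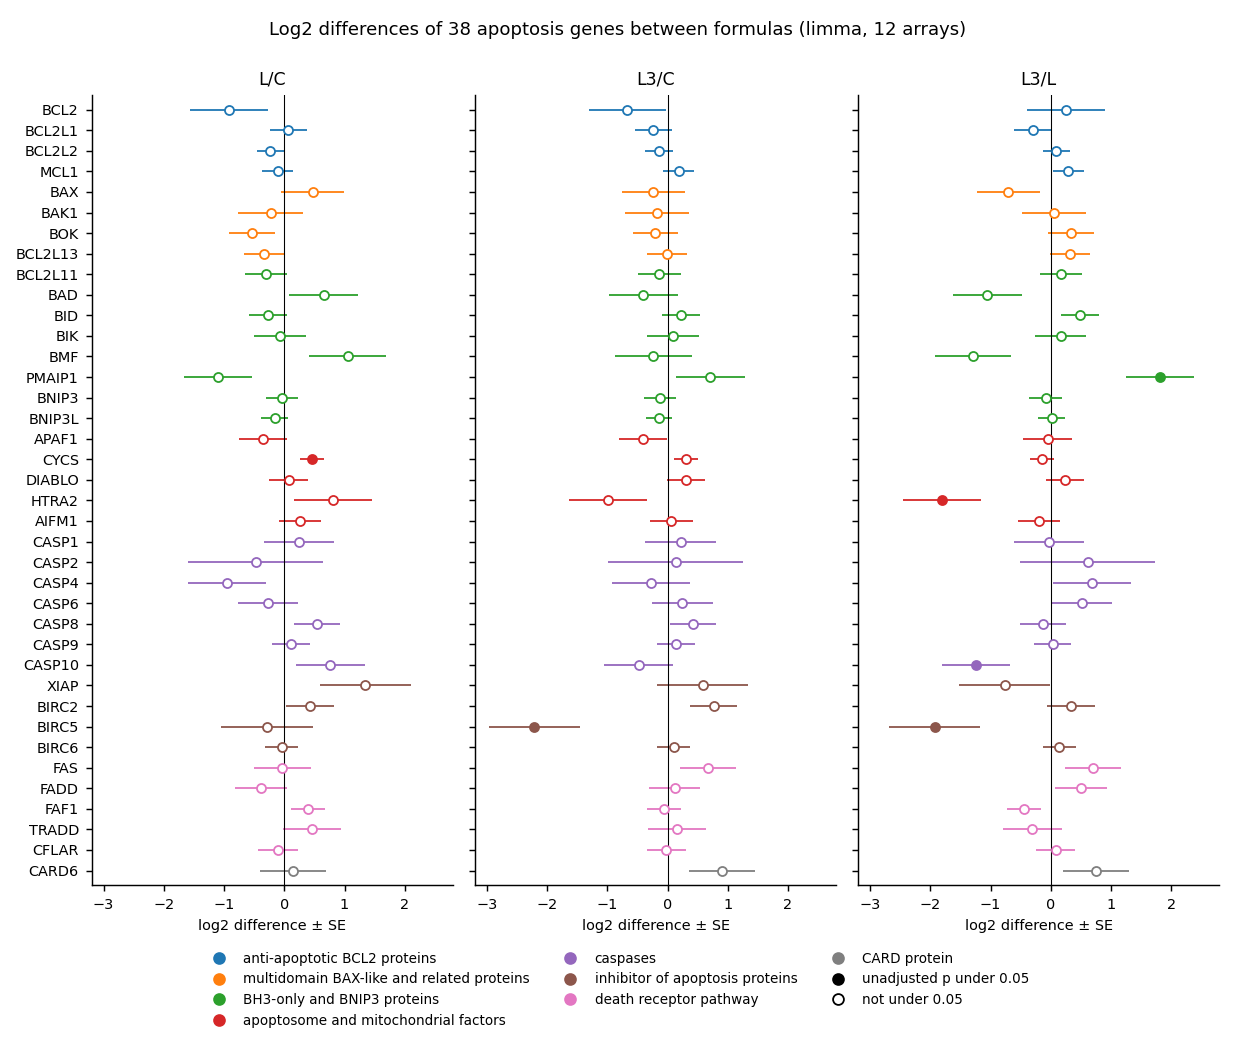
Log2 differences (x axis, with SE as bars) of the 38 measured members in L/C, L3/C and L3/L, coloured by role, with filled points for an unadjusted p under 0.05 from limma. Points lie on both sides of 0 in each comparison, and 1, 1 and 4 members are filled, with BIRC5 farthest to the left in L3/C at -2.21 and PMAIP1 farthest to the right in L3/L at 1.82.

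Among the BH3-only proteins, PMAIP1 gave the smallest p of all members in L3/L. PMAIP1 (NOXA), a p53-induced protein that binds MCL1, read a signal of 16.6, 24.1, 23.3 and 32.6 on the 4 L arrays and of 190.5, 208.4, 91.9 and 102.4 on the 4 L3 arrays. On the C arrays it read 127, 239.9, 23.4 and 24.3. All L3 arrays lay above all L arrays, while the C arrays split, with replicates 1 and 2 at the L3 level and replicates 3 and 4 at the L level. The log2 difference in L3/L was 1.82 (SE 0.57), or 3.52-fold higher in L3 (limma, p = 0.00555, adjusted p = 0.891), and the exact permutation p was 0.0286, the smallest that 4 against 4 arrays can give. It was -1.10 in L/C (SE 0.57, exact permutation p = 0.171) and 0.71 in L3/C (SE 0.57, exact permutation p = 0.343). The call in L3/L was kept in all 25 alternative fits that held the probe set, with values from 1.62 to 2.36. This probe set is dim, with a mean signal of 92.0 beside a median of 149.9 over all probe sets, and its L values are near the pseudocount of 16. The other PMAIP1 probe set, at a mean signal of 4.97, gave -0.04 (SE 0.13).

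BMF, a BH3-only protein tethered to the cytoskeleton, read higher on every L array than on any L3 array, without a call in limma. Its signal was 209.7, 234, 202.2 and 238 on the L arrays, 165, 72.8, 27.1 and 143 on the L3 arrays, and 19.1, 118, 113 and 263 on the C arrays. The L arrays lay close together, whereas C spanned the range of L and L3. L3/L was -1.29 on the log2 scale (SE 0.64, limma, p = 0.0594, exact permutation p = 0.0286) and L/C was 1.05 (SE 0.64, limma, p = 0.117). BMF has no other probe set here.

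BAD, which frees BAX by binding BCL2 and BCL2L1 and was selected by the study on these same arrays, read 70.8, 96.7, 197 and 318 on the C arrays, 153, 245, 246 and 339 on the L arrays, and 65.2, 98.7, 109.7 and 248 on the L3 arrays. The groups overlapped in every comparison, and the study's own choice of BAD, CASP9, FAF1 and CARD6 makes their direction here no independent evidence. Log2 differences were 0.65 in L/C, -0.40 in L3/C and -1.06 (SE 0.57, limma, p = 0.0828, exact permutation p = 0.0857) in L3/L. On the probe set that the study chose they were 0.59, -0.13 and -0.72, each with an SE of 0.94. Of the 5 remaining proteins of this role, the autophagy and hypoxia related BNIP3 and BNIP3L stayed within -0.16 and 0.02 in all comparisons, and BCL2L11, BID and BIK lay between -0.31 and 0.49 with no unadjusted p under 0.05 in limma.

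The BAX-like and related proteins, among which BAX and BAK1 open the outer mitochondrial membrane, showed no call. BAX read 43.3, 301, 153 and 306 on the C arrays, 240.1, 257, 249 and 181 on the L arrays, and 99.4, 194, 171 and 165 on the L3 arrays. On the normalised scale all L arrays lay above all L3 arrays, although the deposited signals of L replicate 4 and L3 replicate 2 cross. L3/L for BAX was -0.71 on the log2 scale (SE 0.52, limma, p = 0.193, exact permutation p = 0.0286). The other BAX probe set, dim at a mean signal of 19.3, gave -0.33 (SE 0.25) and did not overlap either. BAK1, BOK and BCL2L13 had log2 differences in L3/L of 0.05, 0.33 and 0.32. In L3/C the 4 values of this role lay between -0.24 and -0.01, none called.

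The anti-apoptotic proteins, which hold BAX and BAK1 in check, had no call on their brightest probe sets. BCL2 read 388, 679, 155 and 204 on the C arrays, 630.0, 105, 124 and 55.5 on the L arrays, and 389.6, 68.3, 275 and 274 on the L3 arrays. L alone spanned from 55.5 to 630.0, and the groups overlapped. Log2 differences were -0.92 (SE 0.64, exact permutation p = 0.314) in L/C, -0.67 in L3/C and 0.26 in L3/L. Without L replicate 1, the L array at 630.0, L/C for BCL2 was -1.55 and called, and the smallest value on leaving out 1 array was -0.53. BCL2L1, the main survival protein of mature neurons, was steadier, at 567, 385, 714 and 664 in C, 563, 479, 724 and 563 in L, and 516, 423, 348 and 694 in L3. Its log2 differences were 0.07, -0.23 and -0.30 (SE 0.30 each), with 95% intervals of -0.57 to 0.71, -0.87 to 0.40 and -0.94 to 0.33. BCL2L2 and MCL1 lay between -0.23 and 0.29. A dimmer BCL2L1 probe set was called in L3/C at -1.11 (SE 0.49, exact permutation p = 0.114), and so was a dim MCL1 probe set at -0.56 (SE 0.25, exact permutation p = 0.0286), while the brightest MCL1 probe set gave 0.18.

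**Figure D2:**
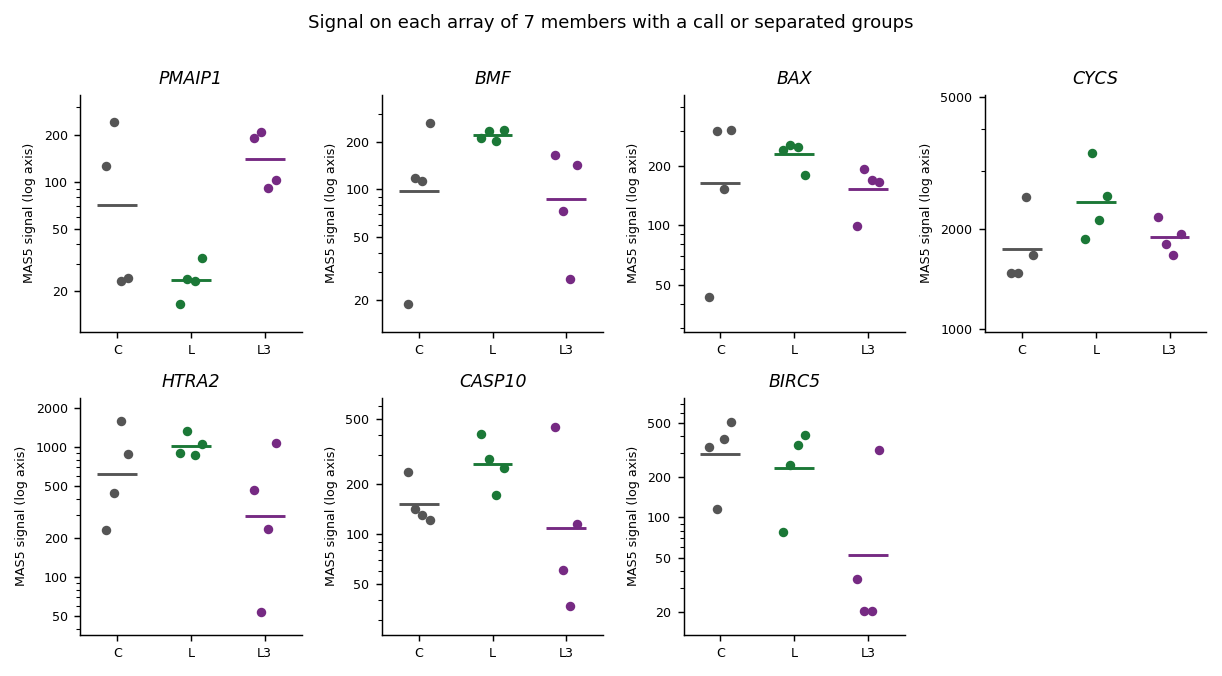
MAS5 signal (log axis) of PMAIP1, BMF, BAX, CYCS, HTRA2, CASP10 and BIRC5 on each of the 4 arrays of C, L and L3, with a line at the group mean taken on the log2(signal + 16) scale. PMAIP1 lies at or below 32.6 on all L arrays and at or above 91.9 on all L3 arrays, and BIRC5 lies at or below 35.0 on 3 of the 4 L3 arrays.

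Among the mitochondrial factors CYCS was higher in L than in C. CYCS, the electron carrier that nucleates the apoptosome once released, read 1479.5, 1475, 2496 and 1675 on the C arrays, 1867, 3383, 2129.6 and 2514 on the L arrays, and 2172, 1808, 1677 and 1929 on the L3 arrays. On the normalised scale each L array was above each C array, but C replicate 3 exceeds L replicates 1 and 3 in the deposited signals. The log2 difference in L/C was 0.46 (SE 0.20), or 1.38-fold (limma, p = 0.0338, adjusted p = 1.00, exact permutation p = 0.0286). Its 2 other probe sets gave 0.30 (SE 0.41, exact permutation p = 0.429) and 1.69 (SE 0.76, exact permutation p = 0.114) in L/C, the second of these called. The call was lost in 9 of 26 alternatives, among them without C replicate 1 or 4 and without L replicate 1 or 2, with log2 differences down to 0.28. The protein also serves respiration, and its release was not measured.

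HTRA2, a mitochondrial protease that antagonises XIAP once in the cytosol, was lower in L3 than in L. It read 229, 443, 1596 and 881 on the C arrays, 901, 1333, 875 and 1056 on the L arrays, and 472, 53.9, 237 and 1079 on the L3 arrays. The L arrays were tightly grouped, 3 of the L3 arrays were below all of them and L3 replicate 4 was among them. L3 differed from L by a log2 value of -1.80 (SE 0.65), or 3.48-fold lower in L3 (limma, p = 0.0131, adjusted p = 0.891, exact permutation p = 0.0857). The call was lost in 4 of 26 alternatives, with age (-1.29) or the spike-in signal (-1.18) as a covariate, by the multiclass and pairwise analysis and without L3 replicate 2 (-1.11), while without L3 replicate 4 the value was -2.40, and the other HTRA2 probe set gave 0.15 (SE 0.33). APAF1, the scaffold of the apoptosome, read 361, 411, 179.7 and 234 on the C arrays, 360.2, 216, 139.6 and 207 on the L arrays, and 401, 174, 328 and 128 on the L3 arrays, with no call in any comparison and log2 differences of -0.35, -0.40 and -0.05 (SE 0.40 each). DIABLO, which relieves XIAP, and AIFM1, a flavoprotein of caspase-independent death, lay between -0.19 and 0.31.

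The caspases, proteases that carry out the death program, had 1 call in 3 comparisons. CASP10, an initiator of the extrinsic route, read 239, 141, 129.7 and 121 on the C arrays, 405, 285, 172 and 251 on the L arrays, and 445, 60.7, 36.8 and 115 on the L3 arrays. L3 replicate 1 was the highest of all 12 arrays and the other L3 arrays were below all L arrays. The log2 difference in L3/L was -1.24 (SE 0.57), or 2.36-fold lower in L3 (limma, p = 0.045, adjusted p = 0.891, exact permutation p = 0.171). Its 3 other probe sets gave 0.53, 0.12 and 0.21, and the call was lost in 16 of 26 alternatives, including on leaving out any L3 array but replicate 1, any L array but replicate 3 and any C array but replicate 2, with values from -0.81 without L3 replicate 3 to -1.85 without L3 replicate 1, which kept the call. CASP9, the initiator of the intrinsic route and a study selection on these arrays, read 685, 567, 407 and 564 in C, 918, 381, 551 and 527 in L, and 645, 604, 636 and 510.1 in L3. Its log2 differences were 0.11, 0.14 and 0.03 (SE 0.31 each), and 0.04, 0.15 and 0.11 (SE 0.33 each) on the study's probe set, both with overlapping groups. The 95% interval in L3/C ran from -0.53 to 0.81.

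CASP2, an initiator-like caspase with the largest SE of the members, read from 30.5 to 2546 on the 12 arrays, and its log2 differences of -0.48, 0.14 and 0.61 have an SE of 1.12. The inflammatory CASP1 and CASP4, the effector CASP6 and the initiator CASP8 had log2 differences between -0.95 and 0.69, none called. For CASP8 the L/C and L3/C values were 0.54 and 0.42 (SE 0.38 each).

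**Figure D3:**
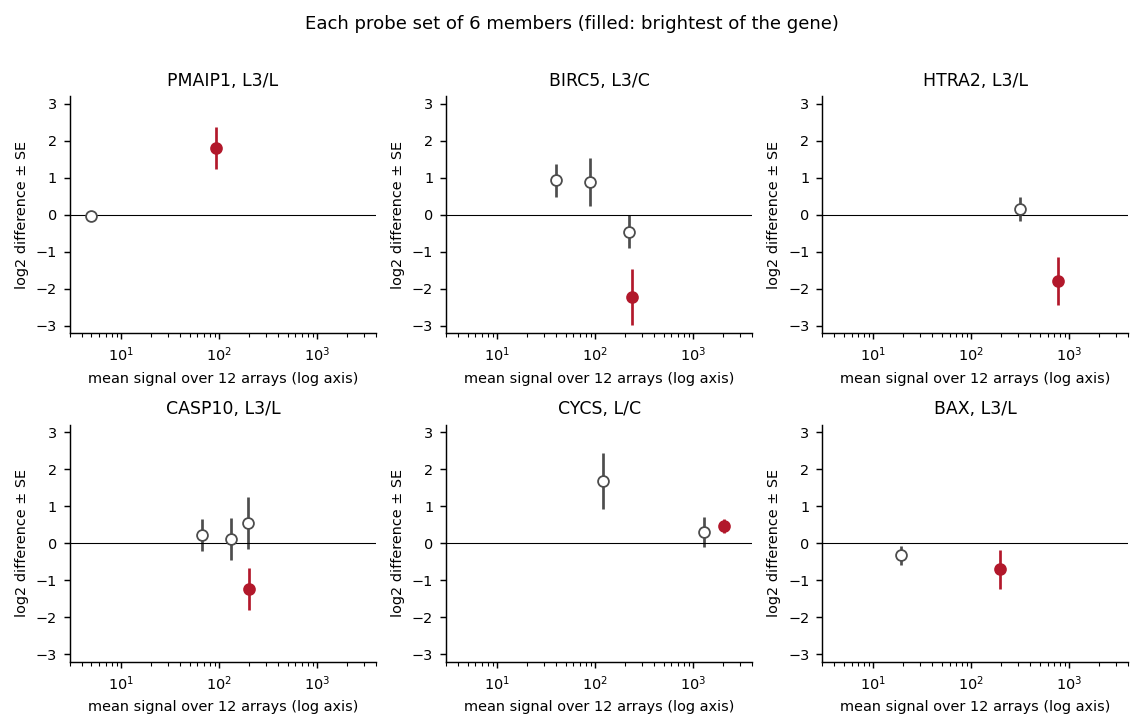
Log2 difference of every probe set of PMAIP1 and of HTRA2, CASP10 and BAX in L3/L, of BIRC5 in L3/C and of CYCS in L/C, with its SE, against the probe set's mean signal on a log axis; the brightest probe set is filled in red. For BIRC5 the brightest probe set lies at -2.21 and a dim one at 0.93, and for HTRA2 the values are -1.80 and 0.15.

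The inhibitors of apoptosis held the largest difference of the list. BIRC5 (survivin), an inhibitor that is also part of the mitotic chromosomal passenger complex, read 332, 115, 384 and 514 on the C arrays, 78.4, 244, 348 and 408 on the L arrays, and 35.0, 20.3, 20.2 and 316 on the L3 arrays. L3 replicates 1 to 3 were below every C and L array, while replicate 4 was at the C level. The 3 low signals are near the pseudocount of 16 and come from L3 arrays with a higher spike-in signal than replicate 4. Within groups, BIRC5 correlated with the spike-in signal at -0.95, beside a median size of 0.38 over the members. Next in size were CASP2 (0.91), BIRC6 (0.83), BAD (-0.80) and CYCS (0.76). The log2 difference of BIRC5 in L3/C was -2.21 (SE 0.76), or 4.63-fold lower in L3 (limma, p = 0.00979, adjusted p = 0.999, exact permutation p = 0.0857). Without L3 replicate 4 it was -3.01. In L3/L it was -1.92 (SE 0.76), or 3.80-fold lower (limma, p = 0.0214, adjusted p = 0.891, exact permutation p = 0.0857). The L3/C call was lost in 2 of 26 alternatives, with the 9 females alone at -1.74 and with the multiclass and pairwise analysis at -2.21, and the L3/L call in 10 of 26, among them on leaving out L replicate 3 or 4 or L3 replicate 1, 2 or 3. Its 3 other probe sets gave -0.45, 0.90 and 0.93 in L3/C, the last of these called as higher. Of the 21 mitotic and S-phase genes listed for comparison, 6 were higher in L3/C and none had an unadjusted p under 0.05, with a median of -0.26. In L3/L 11 of the 21 were higher and 10 lower, with a median of 0.02. There 1 of them was called (4.76%, beside 5.16% of the brightest probe sets of all genes), the mitotic kinase CDK1 at -1.14 (SE 0.52).

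XIAP, the direct inhibitor of CASP9, read 23.5, 244.5, 122 and 939.7 on the C arrays, 397, 235, 753 and 709.7 on the L arrays, and 129, 178, 398 and 781 on the L3 arrays. The C arrays spanned the full range of the 12 arrays. Differences on the log2 scale were 1.34 (SE 0.75, exact permutation p = 0.229) in L/C, 0.58 in L3/C and -0.76 in L3/L. Leaving out 1 array moved L/C for XIAP between 0.57 and 2.08, the latter without C replicate 4 and called. BIRC2, a ubiquitin ligase of TNF signalling, stood at 0.76 in L3/C (SE 0.39, exact permutation p = 0.143), and BIRC6, a large ubiquitin-conjugating enzyme, stayed between -0.05 and 0.14.

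In the death receptor pathway no member was called. FAF1, a FAS-binding protein and a study selection on these arrays, read 619.9, 483, 944 and 688 in C, 916, 1029.5, 716 and 746 in L, and 776, 564, 454 and 667 in L3. The groups overlapped, with log2 differences of 0.40 (SE 0.28, exact permutation p = 0.143), -0.05 and -0.45. The probe set that the study gave for FAF1 is not named in the annotation used and was not analysed here. FAS, the receptor, was 0.67 and 0.70 (SE 0.47 each) in L3/C and L3/L, and FADD, TRADD and CFLAR lay between -0.38 and 0.50. With sex as a covariate FAS was 1.17 in L3/C and 0.95 in L3/L, both called. Among females only FAS was 1.24 and 0.90, neither called. The 5 FAS probe sets ran from -1.13 to 0.68 in L3/C. CARD6, a CARD protein linked to NF-kappaB signalling and also selected by the study, read 61.3, 53.3, 40.2 and 62.7 in C, 174, 20.5, 56.9 and 50.0 in L, and 275, 65.6, 67.1 and 152 in L3. The lowest L3 signal was just above the highest C signal, the groups overlapped on the normalised scale, and the log2 difference was 0.90 (SE 0.55, limma, p = 0.12, exact permutation p = 0.0857) in L3/C.

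**Figure D4:**
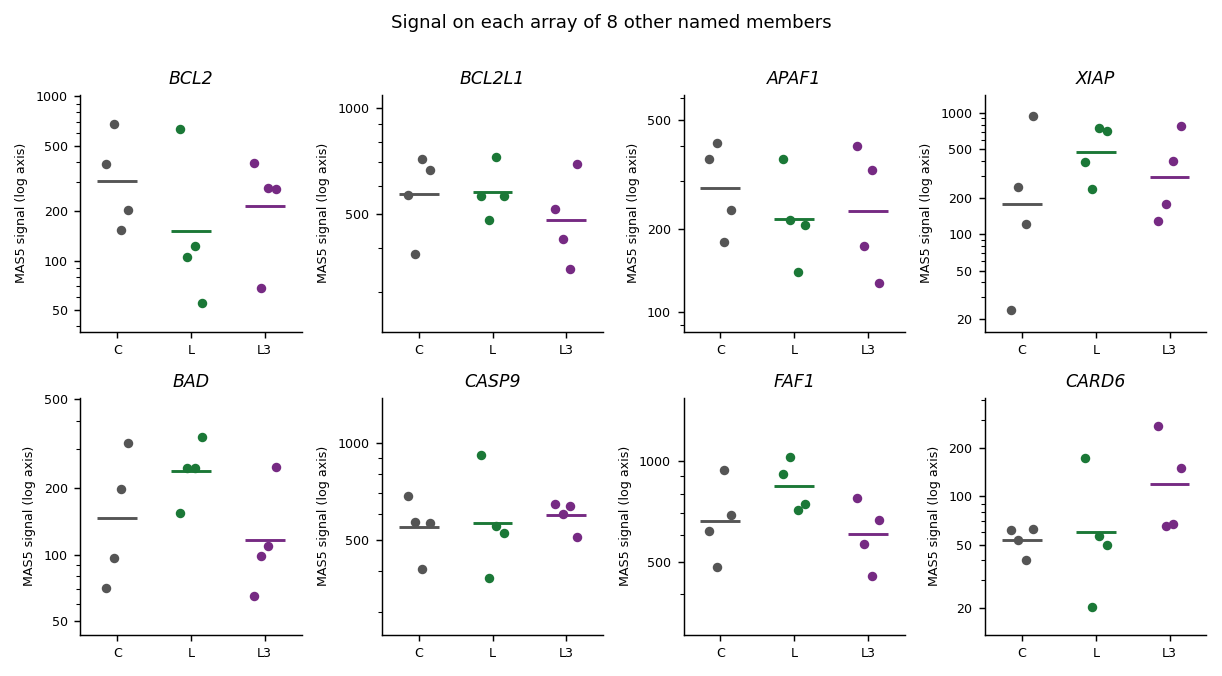
MAS5 signal (log axis) of BCL2, BCL2L1, APAF1, XIAP, BAD, CASP9, FAF1 and CARD6 on each of the 4 arrays of C, L and L3, with a line at the group mean on the log2(signal + 16) scale. The groups overlap on the normalised scale for all 8 genes, with XIAP spread from 23.5 to 939.7.

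Over all 126 probe sets, 2 were called in L/C, 4 in L3/C and 4 in L3/L, or 1.59%, 3.17% and 3.17%, each below the 2.42%, 4.26% and 5.4% of all probe sets. For the 30 genes with several probe sets, 45, 39 and 48 of the 88 probe sets other than the brightest had its sign. All members but 7 (BAK1, BOK, BIK, PMAIP1, CASP4, TRADD and CARD6) had a brightest probe set above the median signal of all probe sets.

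The arrays differed in spike-in signal and ACTB ratio beside some members. The 6 arrays with the lower spike-in signal were C replicates 3 and 4, L replicates 2 to 4 and L3 replicate 4, and the 6 with the higher one were C replicates 1 and 2, L replicate 1 and L3 replicates 1 to 3, a division made after the values were seen. The first 6 had spike-in log2 levels of 10.74 to 12.00 and ACTB ratios of 0.90 to 3.64, and the other 6 had 12.26 to 13.72 and 3.65 to 72.3. CASP2 read 30.5 to 383 on the former and 1128 to 2546 on the latter, while its 6 other probe sets overlapped. Of the 38 members, 4 (10.5%) did not overlap between these arrays, with CASP2, CASP9 and BIRC6 above and BAD below on the arrays with the higher signal, beside 6.01% of the brightest probe sets of all genes. Over all 126 member probe sets 7 (5.56%) did not overlap, beside 4.66% of all probe sets.

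The called members differed as follows inside these sets of arrays. L3/C for BIRC5 was -0.46 among the 6 lower arrays and -2.37 among the 6 higher ones. With the spike-in signal as a covariate BIRC5 was -1.38 in L3/C, still called, and -0.73 in L3/L, not called. In that fit PMAIP1 (1.71) and CYCS in L/C (0.51) kept their calls, and HTRA2 (-1.18) and CASP10 (-1.15) lost theirs in L3/L. CASP2, which was not called without the covariate, was then called at -1.18 in L3/C and -1.29 in L3/L, against 0.14 and 0.61 without it. PMAIP1 had L3/L differences of 1.44 and 2.45, the same direction in both sets. HTRA2 had 0.06 and -2.60, and CASP10 -0.93 and -1.67. The lower set holds 1 L3 array and the higher set 1 L array, so these values have no replicate check, and the part of the spike-in signal and the ACTB ratio in the results was not tested.

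**Figure D5:**
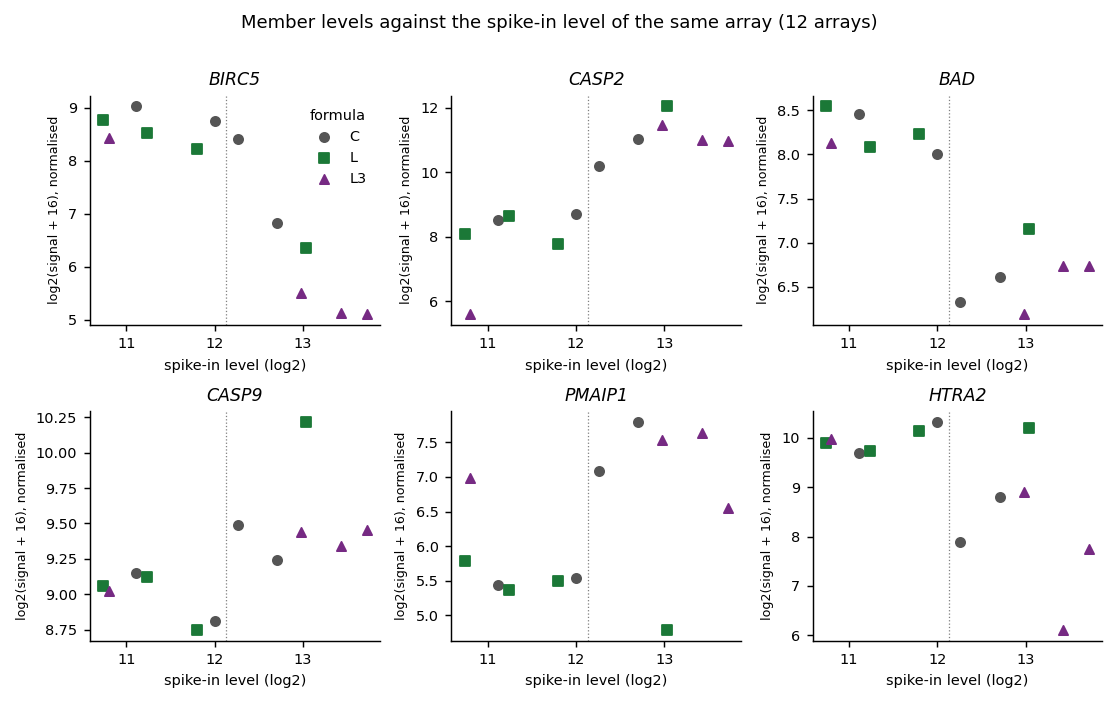
Normalised log2 level of BIRC5, CASP2, BAD, CASP9, PMAIP1 and HTRA2 against the log2 spike-in signal of each of the 12 arrays, coloured by formula, with a dotted line between the 6 arrays of lower and the 6 of higher spike-in signal. CASP2 is separated by the dotted line, and the 3 low BIRC5 values of L3 lie among the arrays with the higher spike-in signal.

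Other apoptosis genes, p53 target genes and hypoxia-induced genes gave the following calls at an unadjusted p under 0.05, and none at an adjusted one, in limma. Of 61 other apoptosis genes, 1 was called in L/C (the co-chaperone BAG5, 1.62), 2 in L3/C (the transcription regulator BCLAF1, 0.61, and the mitochondrial nuclease ENDOG, -1.53) and 1 in L3/L (PDCD5, 1.65), or 1.64%, 3.28% and 1.64%, beside 2.13%, 3.94% and 5.16% of the brightest probe sets of all genes. Of 17 p53 target genes, a class to which PMAIP1 and BAX also belong, 0 were called in L/C, 2 in L3/C (PERP, a desmosomal protein, 0.98, and the cyclin CCNG1, 0.77) and 3 in L3/L, 1 higher (PERP, 1.03) and 2 lower (PHLDA3 at -1.20 and ZMAT3 at -0.95, the latter named after its value was seen). These are 11.8% in L3/C and 17.6% in L3/L, above the same background of 3.94% and 5.16%, and rest on 2 and 3 genes. PERP counts in both shares and was itself selected by the study on these same arrays. The list was chosen with earlier results of these data known, so these shares are no independent evidence. The medians of the 17 genes were -0.02, -0.24 and -0.10. Of 13 hypoxia-induced genes 2 were called, both in L3/L, the peptide hormone ADM higher at 1.79 and the glycolytic PGK1 lower at -0.46, or 15.4% beside 5.16%. That share rests on 2 genes in opposite directions, and the median of the 13 genes in L3/L was -0.03. The hypoxia list was also chosen with earlier results known, so its share is no independent evidence either.

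Cell type markers are given beside the members, since some lists had values on one side in a comparison although few of their genes were called and none at an adjusted p. All 11 microglia markers had higher values in L/C, with a median of 0.31 and the complement gene C1QB called at 2.00, and 2 of 11 were higher in L3/L. Their summed signal was 2236 to 5001 in C, 3557 to 7303 in L and 2706 to 4918 in L3. None of 7 oligodendrocyte markers had a higher value in L3/L, where the myelin gene MOG was called at -1.86, with a list median of -0.29 and summed signals of 7221 to 18116 in L and 5516 to 14344 in L3. Of 7 fibroblast and meninges markers 6 had higher values in L than in C (median 0.60) and 6 in L3 than in C (median 0.93), beside summed signals of 2318 to 7195 in C, 3524 to 12089 in L and 3764 to 15966 in L3. The neuron markers had medians of -0.02, -0.08 and -0.16, the excitatory neuron markers 0.13, -0.42 and -0.55, and the astrocyte markers 0.06, 0.09 and 0.29. Medians were -0.09, -0.11 and -0.02 for inhibitory neurons and 0.28, -0.03 and -0.12 for oligodendrocyte precursors. They were -0.08, -0.25 and -0.27 for endothelium and -0.21, 0.18 and 0.39 for the 3 blood markers. Of the 4 excitatory neuron markers in L3/L, CAMK2A was called higher at 0.44 and NEUROD6 lower at -0.63, and NEUROD6 was also called lower in L3/C at -0.54. The other marker calls were OGN (1.41) in L/C, OGN (1.57), DCN (0.93), AQP4 (0.63), SYN1 (-0.43) and SST (-0.48) in L3/C. In L3/L they were AIF1 (-1.41), SOX10 (-0.90) and COL3A1 (-1.76). The background of the brightest probe sets was 2.13%, 3.94% and 5.16%. LUM and OGN, 2 fibroblast and meninges markers, were also selected by the study on these arrays. Summed microglia signals were 2236 to 3557 on the 6 arrays with higher spike-in signal and 4084 to 7303 on the other 6. For excitatory neurons they were 7633 to 13251 and 22628 to 29778, while oligodendrocyte sums and fibroblast and meninges sums overlapped. The lower set holds 3 L arrays and 1 L3 array, and the part of the spike-in signal in the marker values was not tested. The part of cell composition in the differences of the members was not tested.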

How the data were processed

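Cortical RNA of 12 baboon neonates (C, L and L3, 4 animals each) had been hybridised to human arrays, 1 array per animal. The intensity values deposited by the authors are MAS5 signals on a linear scale with the trimmed mean (2%) of each array at 250.0. The study's methods describe RMA values on a log2 scale with a multiclass and pairwise analysis, but the deposited table holds MAS5 signals, so the test used here differs. After leaving out 62 control probe sets, log2(signal + 16) was quantile normalised and fitted in R 4.3.3 with limma 3.58.1 (3 group means, eBayes with a variance trend, 9 residual degrees of freedom), with Benjamini-Hochberg adjustment over 54613 probe sets. The fit was tested on simulated data. Exact permutation tests (two-sided), summaries and plots used Python 3.11.15, numpy 2.4.6, scipy 1.17.1, pandas 2.3.3 and matplotlib 3.10.9. Of the probe sets, 41091 carry 1 symbol, 1801 several and 11721 none, and human probes that differ from the baboon transcript may read low. Groups came from the sample labels, and the number of arrays limits precision. Arrays are separate animals. Every array value is given for members called at an unadjusted p under 0.05 or with no overlap, for the study's selections and for BCL2, BCL2L1, BAX, APAF1 and XIAP. The members and lists were chosen with earlier results of these data known. Alternatives changed the pseudocount, normalisation, model, covariates and probe set and left out each array.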

Additional observations from a re-analysis of the deposited data

Results flagged for a closer look

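Of 114 groups of 4 arrays (38 members in 3 formulas), 7 held an array set apart from the other 3 by a gap over the 95% critical value of Dixon's test, beside 5.7 by chance at 1 in 20. The value given is the gap divided by the range of the group on the normalised log2 scale.

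For 3 genes the array was L replicate 1. BAK1 read 193.9 there, beside 82.0 to 97.3 on the other L arrays (0.916). BCL2L13 read 293.1, beside 647.5 to 801.9 (0.82901). AIFM1 read 261.8, beside 321.7 to 389.4 (0.847).

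For 2 genes it was L3 replicate 4, the L3 array with the lowest spike-in signal. CASP2 read 30.5 there, beside 1569.7 to 2402 on the other L3 arrays (0.919). BIRC5 read 316.1, beside 20.2 to 35.0 (0.880). The remaining 2 concern TRADD, an adapter of the TNF receptor, with C replicate 1 at 44.2 beside 49.9 to 76.0 (0.926) and L3 replicate 3 at 169.3 beside 49.7 to 53.9 (0.841).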

How the results depend on the processing

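No result of the whole table reached an adjusted p under 0.05 in limma in L/C, L3/C or L3/L under any of 26 alternatives per comparison. Among the 15 genes described by array, called values kept their call in 114 alternative values and lost it in 41, and none changed sign. Values that were not called stayed uncalled with the same sign in 1064, became called in 23 and changed sign in 75. The cause of the changes below was not tested. Counts of members called or without overlap in an alternative are given without the share of all probe sets in that alternative, except where stated. They are therefore not a result about the members. Depth in reads does not apply, and dim probe sets such as that of PMAIP1 lie near the pseudocount.

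Median centring moved the median of all probe sets to -0.12 in L3/C and -0.13 in L3/L, and the members' medians to -0.19 and -0.12. Relative to all probe sets the members' medians were then -0.07 and 0.01. It turned CYCS (-0.053) and CASP9 (-0.050) in L3/C, and CASP9 (-0.13, and -0.0075 on the study's probe set) in L3/L, and left 0 members called and 0 without overlap in L/C. With no further normalisation 0 members were called and 0 did not overlap in L/C, 1 did not overlap in L3/C, in L/C CASP9 was -0.012 on the study's probe set, and APAF1 was 0.093 in L3/L. With pseudocount 1 BAD on the study's probe set was 0.0031 in L3/C. With no variance trend 0 members were called in L/C. By the multiclass and pairwise analysis 2 members were called in L/C, 0 in L3/C and 2 in L3/L. Counting any probe set of a gene, 3 members were called in L3/C (BIRC5, BCL2L1 and MCL1), which gives genes with several probe sets more chances of a call. BIRC5 was called lower on 1 probe set (-2.21) and higher on another (0.93).

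With array weights 2 members were called in L/C, where BCL2L1 was -0.0030, CASP9 -0.031 (-0.10 on the study's probe set) and CARD6 -0.069, and APAF1 was 0.066 in L3/L. With sex as a covariate 0 members were called in L/C and 2 in L3/C (BIRC5 and FAS). In that fit CASP9 was -0.0039 in L/C on the study's probe set and -0.0063 in L3/L on the brightest. BAD on the study's probe set was then 0.26 in L3/C. Among females only, the median was 0.11 in L/C with BAX at -0.044, BIRC5 at 0.095 and 7 members without overlap (18.4%, beside 18.5% of all probe sets with 3 against 2 arrays), 0 members were called in L3/C with 3 without overlap (7.89%, beside 9.47%) and BAD on the study's probe set at 0.12, and 2 were called in L3/L with CASP9 at -0.15 (-0.0023 on the study's probe set).

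With age as a covariate BAD on the study's probe set was -0.27 in L/C, 0.30 in L3/C and 0.56 in L3/L, where 2 members were called, CASP9 was -0.25 (-0.053 on the study's probe set) and XIAP 0.53. With the ACTB 3'/5' ratio as a covariate BAD on the study's probe set was 0.19 in L3/C, and in L3/L the median was -0.057, BCL2 -0.18, CASP9 -0.16 (-0.13 on the study's probe set) and XIAP 0.055. With the spike-in signal as a covariate BCL2L1 was -0.0072 in L/C. In L3/C 2 members were then called (BIRC5, and CASP2 at -1.18), BAD was 0.063 (0.71 on the study's probe set), BMF 0.14 and CASP9 -0.037. In L3/L 2 were called (PMAIP1, and CASP2 at -1.29), the median was -0.062, BCL2 -0.13, BAD on the study's probe set 0.50 and CASP9 -0.23 (-0.093 on the study's probe set).

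The replicate numbers are not said to mark a shared litter or batch. The deviations of same-numbered arrays correlated from -0.085 to 0.33, under 0.1 for replicates 2 and 3 and 0.26 to 0.33 for replicate 4. In each group the ACTB ratio fell with the replicate number, from 12.1, 11.0 and 72.3 on replicate 1 to 0.98, 0.90 and 1.13 on replicate 4 (C, L, L3). Replicate 4 also had the lowest spike-in signal of each group. The main fit and the permutation tests did not take same-numbered arrays as pairs, and what the numbers mark was not tested. With the replicate block 2 members were called in L/C (with XIAP at 1.34), 1 in L3/C and 5 in L3/L (with BAD at -1.06), and CYCS in L/C, BIRC5 in L3/C and PMAIP1 in L3/L kept their calls.

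Leaving out 1 array at a time, the count of members called ranged from 0 to 3 in L/C, from 1 to 3 in L3/C and from 1 (without L3 replicate 2) to 6 (without L3 replicate 4) in L3/L. The share of all probe sets called in the same fits is not given, so a higher count is not particular to the members. Log2 differences that changed sign ranged in L/C from -0.12 to 0.16 for BCL2L1, -0.10 to 0.77 for BAX, -0.20 to 0.29 for CASP9 (-0.25 to 0.17 on the study's probe set), -0.76 to 0.25 for BIRC5, -0.20 to 0.45 for CARD6 and -0.044 to 1.25 for BAD on the study's probe set. In L3/C they ranged from -0.81 to 0.063 for BAX, -0.84 to 0.21 for BMF, -0.20 to 1.32 for XIAP, -0.20 to 0.10 for FAF1, and on the study's probe sets from -0.76 to 0.53 for BAD and -0.012 to 0.28 for CASP9. In L3/L they ranged from -0.14 to 0.89 for BCL2, -0.30 to 0.15 for APAF1 and -0.15 to 0.34 for CASP9 (-0.053 to 0.40 on the study's probe set).

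Calls that appeared on leaving out 1 array are given for the 15 genes described by array, and those of other members are not listed. In L/C they were PMAIP1 without C replicate 3 (-1.41) or 4 (-1.44), BMF (1.51) and XIAP (2.08) without C replicate 4 and BCL2 without L replicate 1 (-1.55). In L3/C they were HTRA2 without C replicate 1 (-1.42) or L3 replicate 4 (-1.59), PMAIP1 without C replicate 2 (1.16) and CASP10 without L3 replicate 1 (-1.09). In L3/L they were BAD without L replicate 1 (-1.34) or L3 replicate 4 (-1.45) and BMF without C replicate 1 or 4 (-1.29 each) or L3 replicate 1 (-1.52) or 4 (-1.56).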
